A study of Mus musculus with 20 samples.

Results

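Regulatory T cells (Treg) were compared with fresh CD5lo naive CD4 T cells, an unpaired contrast of 4 libraries against 4 and thus of 8 of the 20 RNA sequencing libraries in the series. The members are the count columns titled Foxp3 and fCD5lo, each with replicates 1 to 4. All cells came from spleen and lymph node of C57BL/6 mice aged 8 to 12 weeks, carried a Foxp3-GFP reporter by which they were gated, and were described in the labels as pooled from males and females. The reporter's construct is not given in the sources used here. Treg were TCRb+, CD4+, CD8- cells positive for Foxp3-GFP, with no gate on CD44 or CD5. The CD5lo cells were TCRb+, CD4+, CD8- cells negative for Foxp3-GFP and for CD44, within the 15% lowest for surface CD5. Fresh CD5hi cells, set beside them where useful, were the 15% highest for CD5 in the same naive gate. All 3 groups were lysed without culture and left out cells stained for CD69 (activated cells), B220 (B cells), NK1.1 (NK cells), Ly6G (granulocytes), or the myeloid markers CD11b, CD11c and F4/80. The cell type label of the Treg samples opens with the name of the CD5lo naive cells and then gives the Foxp3-GFP+ gate. The contrast therefore holds Foxp3, surface CD5 and surface CD44 together, because the naive gate excluded CD44-bearing cells and the Treg gate did not.

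Treg are the CD4 lineage that holds other T cells in check, and the transcription factor Foxp3 defines them. They are known for constant expression of the high-affinity interleukin 2 receptor, for taking up interleukin 2 without making it, and for suppressor proteins that act on neighbouring cells. Naive T cells circulate between blood and lymph nodes, guided by the chemokine receptor CCR7, and rely on interleukin 7. CD5 sits on the T cell surface and dampens signals of the T cell receptor (TCR), and naive cells carry more of it the more strongly they recognise self-peptide.

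Libraries held 43509126 to 54555773 counts in Treg and 51060992 to 58269055 in CD5lo cells. Levels are CPM, counts scaled to a common library total after trimmed-mean scaling, given as mean ± SD (n = 4). Changes are log2 fold changes, Treg minus CD5lo, tested with edgeR's quasi-likelihood test and called at a Benjamini-Hochberg adjusted p under 0.05. The ± value after a log2 fold change is only an approximate error, worked back from the test statistic. It is too small for large changes where either group had few counts. For Lrrc32, with 2 counts in the CD5lo libraries, it was 0.33, although the counting interval of its ratio ran from 13900 to 414000. The sexes of the libraries were uneven. Summed CPM of 4 Y-linked genes was 0.0851, 0, 333 and 0.149 in Treg replicates 1 to 4, against 371 to 397 in the CD5lo libraries. Xist, the RNA of the inactive X chromosome, stood at 1670, 1500, 0.598 and 1740 CPM in the same Treg libraries, against 0.248 to 0.626 CPM in CD5lo cells. Treg replicates 1, 2 and 4 thus lacked the Y-linked reads that Treg replicate 3 and all CD5lo libraries carried. No library was high for both, although the labels describe pools of males and females. All fresh CD5hi libraries carried Y-linked reads, at 366 to 405 CPM. In both groups of rested cells in the series, replicate 3 alone carried them, as in Treg. Treg replicate 3 also stood apart on the second principal component, which took 2.3% of the variance, whereas the first took 92.2% and parted the groups.

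The difference between the groups was broad. Of 13309 genes tested, 7791 (58.5%) were called, 3881 of them higher in Treg (29.2%) and 3910 lower (29.4%). Large changes leaned towards rises: 1868 called genes (14.0%) were at least 2-fold higher in Treg and 578 (4.34%) at least 2-fold lower, and 761 were at least 8-fold higher against 91 at least 8-fold lower. The median log2 fold change over all genes was -0.03 and the mean 0.32. CPM of the 4 and 4 libraries did not overlap for 7516 genes (56.5%). Without scaling of library totals, 4790 genes were called higher and 2709 lower, so the even split rests on the scaling, which moved the median of all genes by 0.103 (log2). With Treg replicate 3 as the only Treg library, which has Y-linked reads as the CD5lo libraries do, 5324 genes were called, 2950 higher and 2374 lower, and 66.5% of the 7791 calls were kept in the same direction. The part of sex in the other calls was not tested. On autosomes 59.0% of 11409 genes were called, and on the X chromosome 55.8% of 400. On the Y chromosome 0 of 4 were called, although Y-linked reads were nearly absent from all Treg libraries but replicate 3. These shares therefore cannot show the part of sex.

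**Figure D1:**
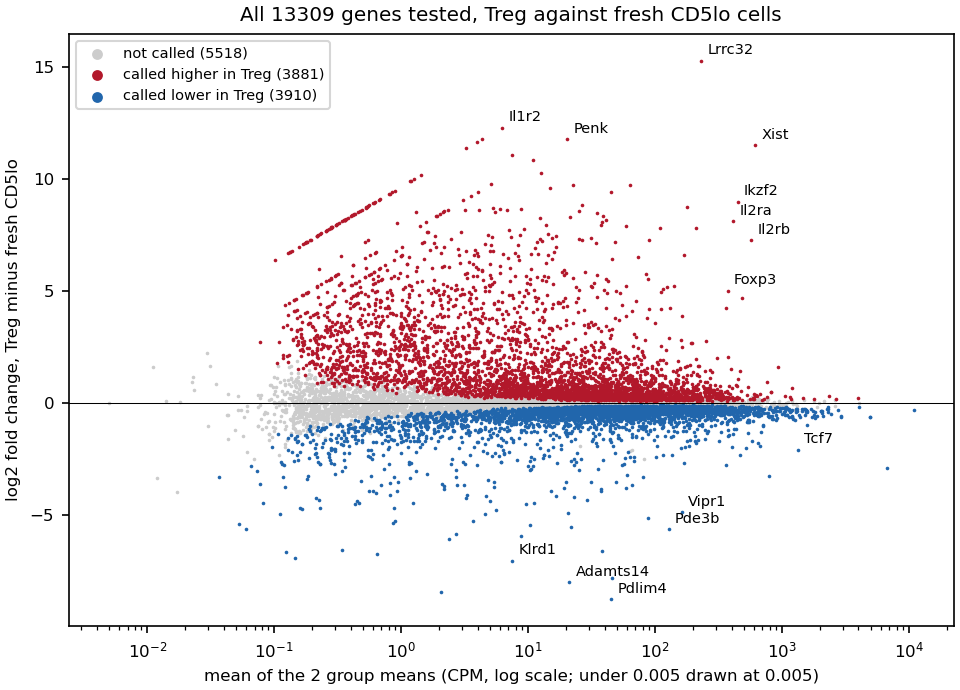
Log2 fold change, Treg minus fresh CD5lo, against the mean of both group means in CPM (log axis) for the 13309 genes tested. Each point is 1 gene, red where called higher in Treg (3881), blue where called lower (3910) and grey where not called, and points reach farther up than down.

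The labels were checked against the defining genes. Foxp3 stood at 709, 734, 679 and 768 CPM in the Treg libraries, against 20.9, 22.4, 23.3 and 22.8 CPM in the CD5lo libraries. Every Treg library lay far above every CD5lo library, and the CD5lo mean was 3.09% of the Treg mean. The log2 fold change was 5.02 ± 0.069, with an edgeR adjusted p of 2.3e-22. Because Foxp3-GFP set the gate, this is a check of the sort. All 6 Treg markers, namely Foxp3, Ikzf2, Il2ra, Ctla4, Tnfrsf18 and Folr4, were called higher. Transcripts of T cell surface proteins were plentiful in both groups, with Cd4 at 706 ± 20.2 CPM in Treg and 1110 ± 24.1 CPM in CD5lo cells, and Cd3e at 322 ± 15.5 CPM in Treg and 363 ± 11 CPM in CD5lo cells. Cd5 averaged 606 ± 17.1 CPM in Treg, 982 ± 61.3 in CD5hi cells and 148 ± 9.83 in CD5lo cells. Cd44, the protein absent by gate from naive cells, averaged 133 ± 5.57 CPM in Treg and 31.8 ± 1.31 CPM in CD5lo cells. Cd69, whose protein the sort removed from both groups, averaged 71.9 ± 6.78 CPM in Treg and 55.1 ± 3.52 CPM in CD5lo cells and was not called (edgeR adjusted p = 0.15), although fits on the fresh groups alone called it (4.4e-05 to 1.0e-04).

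Lrrc32 had the largest rise of all genes that met the naming rule. It encodes GARP, which holds latent TGF-beta on the Treg surface. Its level was 472, 438, 433 and 502 CPM in the Treg libraries, against 0, 0.034, 0 and 0 CPM in the CD5lo libraries. Only CD5lo replicate 2 had any count, 2 in all, against 95117 counts in the Treg libraries. The ratio was 50200, with a 95% interval of 13900 to 414000 that covers counting error only and is too narrow, since even counts were in excess, the pattern of read pairs counted per mate. Itgb8, the integrin chain that frees TGF-beta from its latent form, averaged 25.4 ± 0.33 CPM in Treg and 0.0174 ± 0.0201 CPM in CD5lo cells. Its Treg libraries lay between 25.1 and 25.9 CPM, a narrow range, and 2 CD5lo libraries were at 0.

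Il1r2, the decoy receptor for interleukin 1, was at 15.9, 9.93, 11.9 and 12.3 CPM in Treg and had no count in any CD5lo library. Set against a floor of 3 counts over the 4 CD5lo libraries, it was 920-fold higher in Treg. The 95% lower limit was 748-fold, which covers counting error only and has the same weakness as the interval of Lrrc32. Penk, the precursor of enkephalins, averaged 40.6 ± 4.57 CPM in Treg and 0.00851 ± 0.017 CPM in CD5lo cells, with 2 counts in the CD5lo libraries and a ratio of 4460 (interval 1230 to 36800). Ptpn5, a tyrosine phosphatase best known from neurons, averaged 15 ± 0.856 CPM in Treg, and 1 count was found in the CD5lo libraries, for a ratio of 3270 (586 to 129000). These genes were thus plain in every Treg library and at or near the limit of detection in CD5lo cells.

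The positioning receptors Gpr15 and Ccr6 came next, with Tnfrsf8 of the TNF receptor family. Gpr15, a homing receptor for the large intestine, was at 24.8, 21.5, 17.4 and 23 CPM in Treg, against 0, 0, 0.0391 and 0 CPM in CD5lo cells. The ratio of its counts was 2360 (654 to 19500). Ccr6, the receptor for CCL20, was at 45.3 ± 4.36 CPM in Treg and 0.049 ± 0.0428 CPM in CD5lo cells, a log2 fold change of 9.74 ± 0.34 (edgeR adjusted p = 4.2e-16). Tnfrsf8, which encodes CD30, averaged 10.2 ± 1.27 CPM in Treg, with 2 counts in the CD5lo libraries and a ratio of 1110 (308 to 9190). No Treg library of these 3 genes came near a CD5lo library, and the naming rule took only genes without overlap.

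The other 4 of the 12 largest rises were Rgs9, Ikzf2, Fgl2 and Coro2a. Ikzf2 encodes Helios, a zinc finger factor of the Ikaros family. It stood at 899, 841, 896 and 941 CPM in Treg, against 1.76, 2.26, 1.76 and 1.22 CPM in CD5lo cells. No library of one group came near the other, and the log2 fold change was 8.99 ± 0.15 (edgeR adjusted p = 2.4e-21). Coro2a, of the coronin family of actin-binding proteins, averaged 354 ± 15.8 CPM in Treg and 0.826 ± 0.435 CPM in CD5lo cells. Fgl2, a secreted fibrinogen-like suppressor protein, averaged 52.7 ± 7.65 CPM in Treg and 0.112 ± 0.0682 CPM in CD5lo cells. Rgs9, which speeds the shutdown of G protein signals, averaged 29.9 ± 1.15 CPM in Treg and 0.0361 ± 0.0234 CPM in CD5lo cells. Across all tested genes, 52 were at 10 CPM or more in every Treg library and under 0.5 CPM in every CD5lo library.

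**Figure D2:**
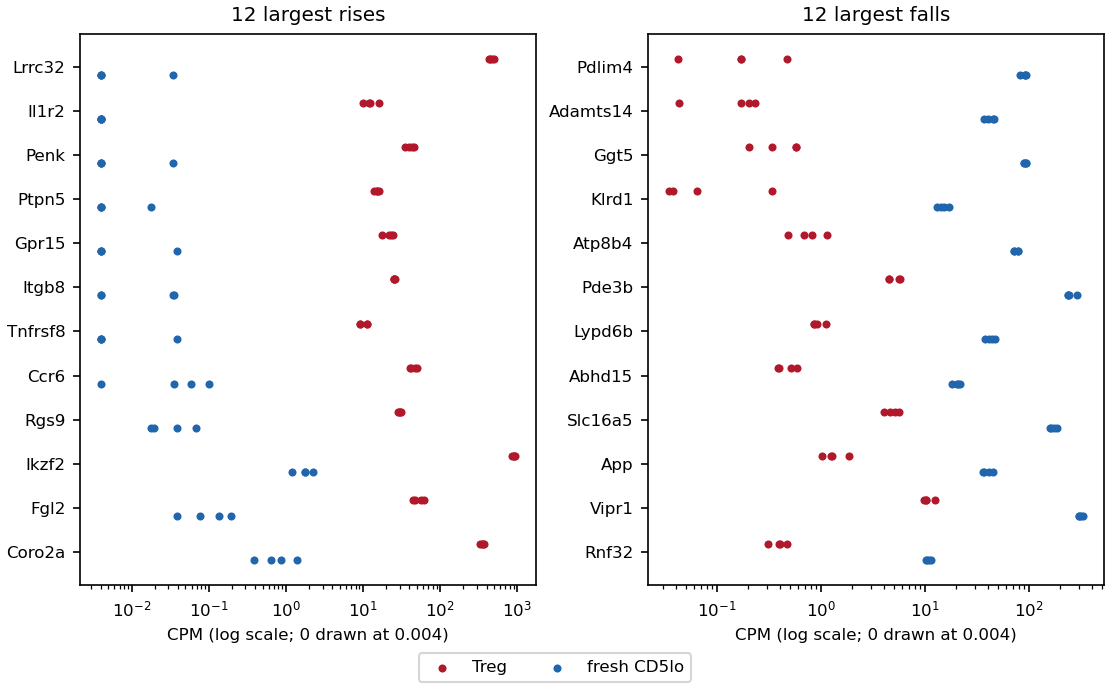
CPM in each library (log axes, 0 drawn at 0.004) of the 12 largest rises (left) and the 12 largest falls (right) among called genes, with red points for the 4 Treg libraries above blue points for the 4 fresh CD5lo libraries. Only genes whose groups do not overlap could be chosen, and several risers have CD5lo libraries at 0.

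The largest falls were genes at clear levels in naive cells. Pdlim4, a cytoskeletal PDZ and LIM protein, was at 0.17, 0.0423, 0.168 and 0.469 CPM in Treg, against 90.9, 91.9, 82.5 and 93.8 CPM in CD5lo cells. All Treg libraries were near 0, at 0.236% of the CD5lo mean, and the log2 fold change was -8.73 ± 0.31 (edgeR adjusted p = 4.7e-16). Adamts14, a protease that trims procollagen, averaged 0.162 ± 0.0838 CPM in Treg and 42.1 ± 4.25 CPM in CD5lo cells. Ggt5, an enzyme of leukotriene and glutathione breakdown, averaged 0.422 ± 0.183 CPM in Treg and 91.4 ± 2.63 CPM in CD5lo cells. Klrd1, which encodes the NK receptor chain CD94, averaged 0.118 ± 0.147 CPM in Treg and 14.9 ± 1.72 CPM in CD5lo cells. Atp8b4, of a family of phospholipid flippases, averaged 0.78 ± 0.278 CPM in Treg and 74.9 ± 3.71 CPM in CD5lo cells.

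Pde3b, a phosphodiesterase that breaks down cyclic AMP, was at 5.77, 5.65, 4.46 and 4.48 CPM in Treg, against 237, 239, 290 and 240 CPM in CD5lo cells. CD5lo replicate 3 was the highest, and the groups lay far apart (log2 fold change -5.62 ± 0.12, edgeR adjusted p = 1.4e-19). Vipr1, the receptor for vasoactive intestinal peptide, was at 9.82, 10.2, 10.3 and 12.6 CPM in Treg, against 306, 317, 331 and 301 CPM in CD5lo cells. Treg held 3.41% of the CD5lo mean. App, the amyloid precursor protein, averaged 1.35 ± 0.348 CPM in Treg and 39.9 ± 4 CPM in CD5lo cells, and Slc16a5, of the monocarboxylate transporter family, averaged 4.86 ± 0.686 CPM in Treg and 171 ± 11.4 CPM in CD5lo cells. The last 3 of the 12, Lypd6b, Abhd15 and Rnf32, held between 2.19% and 3.66% of the CD5lo mean in Treg. In the pattern opposite to that of the 52 genes, 5 genes were at 10 CPM or more in every CD5lo library and under 0.5 CPM in every Treg library. They were Pdlim4, Adamts14, Klrd1, Rnf32 and AI646023, the last of which was singled out after its values were seen.

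Promoters of these 24 genes were read where a sequence was at hand, as 250 bases before to 50 bases after the start of the gene (RefSeq, build GRCm38.p6). Motifs were searched on both strands, and matches of different motifs may share bases. The AP-1 motif was searched as TGANTCA, where N is any base, a loose form of the site bound by Fos and Jun family factors. The match in Gpr15 has T at N. This motif was found in 3 of 9 promoters among the 12 largest rises and in 1 of 7 among the 12 largest falls. Those 4 are shown, as they are the named promoters that carry the motif, with the motif in capitals.
Gpr15 (chr16:58718823-58719122, minus strand): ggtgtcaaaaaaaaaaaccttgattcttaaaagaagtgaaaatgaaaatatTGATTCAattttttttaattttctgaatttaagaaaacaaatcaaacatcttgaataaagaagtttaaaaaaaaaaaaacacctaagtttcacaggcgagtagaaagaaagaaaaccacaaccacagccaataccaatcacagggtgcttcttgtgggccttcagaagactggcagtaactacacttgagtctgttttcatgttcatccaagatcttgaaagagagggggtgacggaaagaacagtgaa
Tnfrsf8 (chr4:145315115-145315414, minus strand): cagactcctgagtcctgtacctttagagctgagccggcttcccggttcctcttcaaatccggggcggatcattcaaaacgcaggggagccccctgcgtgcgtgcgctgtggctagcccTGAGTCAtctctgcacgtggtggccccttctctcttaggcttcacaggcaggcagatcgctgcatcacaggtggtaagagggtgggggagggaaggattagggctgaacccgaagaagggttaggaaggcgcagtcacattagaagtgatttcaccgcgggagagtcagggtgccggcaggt
Fgl2 (chr5:21372423-21372722, plus strand): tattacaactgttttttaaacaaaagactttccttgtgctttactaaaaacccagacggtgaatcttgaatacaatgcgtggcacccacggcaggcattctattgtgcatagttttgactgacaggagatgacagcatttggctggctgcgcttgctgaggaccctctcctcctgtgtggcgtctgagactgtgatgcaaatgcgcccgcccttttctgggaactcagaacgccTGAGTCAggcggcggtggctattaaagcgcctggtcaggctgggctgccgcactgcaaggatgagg
Atp8b4 (chr2:126491504-126491803, minus strand): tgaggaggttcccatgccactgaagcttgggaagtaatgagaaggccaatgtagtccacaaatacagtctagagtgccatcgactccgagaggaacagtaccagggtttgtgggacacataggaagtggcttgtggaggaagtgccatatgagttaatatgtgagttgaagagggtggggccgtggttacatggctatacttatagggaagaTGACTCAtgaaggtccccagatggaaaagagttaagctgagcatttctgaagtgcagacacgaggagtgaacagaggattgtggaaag
The motif begins 199, 132, 16 and 38 bases before the start of Gpr15, Tnfrsf8, Fgl2 and Atp8b4. Among genes called at least 4-fold higher in Treg, 10.3% of 865 promoters held it, among those at least 4-fold lower 9.03% of 144, among all tested genes 6.19% of 10399, and among all promoters of that length 7.81% of 32851. Another 6 motifs were searched, and each share is given for the at least 4-fold higher genes and then for all tested genes. The STAT motif TTCNNNGAA was in 8.09% and 8.38% of promoters, the forkhead motif TGTTTAC in 4.16% and 3.19%, and the Nr4a motif AAAGGTCA in 0.347% and 1.19%. The RUNX motif TGTGGT was in 18.6% and 15.4%, the ETS motif AGGAAGT in 12.5% and 10.8%, and the TCF/LEF motif CTTTGA in 14.7% and 14.3%. These shares describe letters in a short window and were not tested.

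Transcription factors known from Treg were mostly higher. Of 29 tested, 24 were called higher and 3 lower, with a median log2 fold change of 1.32 against -0.03 over all genes. The 24 include Foxp3, whose reporter set the gate. Over all genes, 29.2% were called higher and 29.4% lower, the background for the counts of each list below. Beside Foxp3 and Ikzf2, Ikzf4 (Eos, a Foxp3 partner) stood at 139, 132, 128 and 140 CPM in Treg, against 6.98, 5.31, 5.26 and 5.56 CPM in CD5lo cells. The groups did not overlap, and the log2 fold change was 4.54 ± 0.11 (edgeR adjusted p = 7.3e-19). Maf, a bZIP factor that drives Il10, averaged 172 ± 18.7 CPM in Treg and 3.65 ± 0.651 CPM in CD5lo cells. Hopx, a small homeodomain protein, averaged 96 ± 6.4 CPM in Treg and 2.95 ± 0.532 CPM in CD5lo cells, and Irf4, an interferon regulatory factor induced by TCR signals, 96.2 ± 5.25 CPM in Treg and 7.31 ± 0.635 CPM in CD5lo cells. The 3 lower members were Bach2, Foxo1 and Runx1.

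Helper lineage regulators were mostly higher too. Of 24 tested, 17 were called higher and 2 lower, with a median log2 fold change of 1.56. The lower ones were Runx3 and Zbtb7b, and Zbtb7b was no longer called in 7 of the 8 fits that left out 1 library, all but that without Treg replicate 2 (edgeR adjusted p = 0.058 to 0.14). Tbx21, which encodes T-bet of Th1 cells, was at 5.64, 5.1, 8.35 and 6.1 CPM in Treg, against 0.638, 0.732, 0.489 and 0.467 CPM in CD5lo cells. Gata3, of Th2 cells, averaged 110 ± 6.54 CPM in Treg and 56.2 ± 5.32 CPM in CD5lo cells. Both were higher in each Treg library than in any CD5lo library, Tbx21 at low levels and Gata3 from a clear level in both groups. Tox2, an HMG-box factor, averaged 11.9 ± 1.44 CPM in Treg and 0.17 ± 0.0343 CPM in CD5lo cells, and Runx2 19.3 ± 1.54 CPM in Treg and 0.647 ± 0.0879 CPM in CD5lo cells. In bulk RNA, more cells of a kind and more RNA per cell cannot be told apart.

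Surface receptors known from Treg were nearly all higher. Of 22 tested, 21 were called higher and 1, Ly75, lower, and the median log2 fold change was 6.55. Il2ra, the alpha chain that gives the interleukin 2 receptor its high affinity, was at 862, 793, 788 and 852 CPM in Treg, against 3.03, 3.5, 2.41 and 2.76 CPM in CD5lo cells. The CD5lo mean was 0.355% of the Treg mean (log2 fold change 8.13 ± 0.12, edgeR adjusted p = 2.3e-22). Ctla4, the inhibitory receptor for CD80 and CD86, was at 407, 361, 467 and 452 CPM in Treg, against 1.86, 2.11, 1.82 and 1.69 CPM in CD5lo cells. Its log2 fold change was 7.81 ± 0.13 (edgeR adjusted p = 2.4e-21). Folr4, a folate receptor relative, averaged 682 ± 23.9 CPM in Treg and 35.7 ± 2.86 CPM in CD5lo cells. Receptors of tissue signals and late differentiation were at lower levels: Il1rl1, the interleukin 33 receptor, averaged 49.8 ± 8 CPM in Treg and 0.129 ± 0.074 CPM in CD5lo cells, and Klrg1, an inhibitory cadherin receptor, 42.8 ± 7.04 CPM in Treg and 0.135 ± 0.0719 CPM in CD5lo cells.

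Suppressor molecules rose in 17 of 20 tested members, with a median log2 fold change of 6.69, and Prf1 (perforin) and Lgmn were called lower. Lgmn, a lysosomal protease, had an edgeR adjusted p of 0.048, which was 0.08 to 0.17 when any 1 of the 8 libraries was left out. Il10, the suppressive cytokine, was at 3.17, 2.81, 4.56 and 3.8 CPM in Treg, against 0.0709, 0.017, 0 and 0 CPM in CD5lo cells. It had 741 counts in Treg and 5 in CD5lo cells, a ratio of 156 (66.7 to 483). Gzmb, the cytotoxic protease granzyme B, averaged 13.7 ± 1.87 CPM in Treg and 0.031 ± 0.0405 CPM in CD5lo cells. Areg, the tissue repair factor amphiregulin, averaged 1.24 ± 0.137 CPM in Treg and had no count in CD5lo cells. Against the floor of 3 counts it was 89.3-fold higher, with a 95% lower limit of 72.1-fold for counting error only. Prf1 went the other way, at 6.64 ± 0.718 CPM in Treg and 41.4 ± 3.53 CPM in CD5lo cells (log2 fold change -2.64 ± 0.098, edgeR adjusted p = 1.1e-15). Granzyme B and perforin act together in killer cells, and their transcripts moved in opposite directions here.

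Coinhibitory receptors were called higher in 14 of 18 tested members and lower in 3, with a median of 2.39. The 14 include Cd5, whose protein set the CD5lo gate. Pdcd1, which encodes PD-1, was at 64.8, 55.1, 61.1 and 61.8 CPM in Treg, against 2.27, 1.75, 1.25 and 1.17 CPM in CD5lo cells. Tigit averaged 77.5 ± 8.31 CPM in Treg and 0.234 ± 0.148 CPM in CD5lo cells, Lag3 38 ± 2.85 CPM in Treg and 0.609 ± 0.216 CPM in CD5lo cells, and Havcr2 (TIM-3) 5.72 ± 0.533 CPM in Treg and 0.0725 ± 0.0535 CPM in CD5lo cells. All 4 inhibit T cell activation, and none had overlapping groups. Of 19 TNF receptor family members, 11 were called higher and 4 lower, and 2 were lower with Treg replicate 3 as the only Treg library. Tnfrsf4 (OX40) averaged 241 ± 24.1 CPM in Treg and 6.74 ± 0.435 CPM in CD5lo cells, Tnfrsf9 (4-1BB) 144 ± 10.7 CPM in Treg and 1.58 ± 0.198 CPM in CD5lo cells, and Tnfrsf1b (TNFR2) 436 ± 36.2 CPM in Treg and 64.7 ± 3.02 CPM in CD5lo cells.

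**Figure D3:**
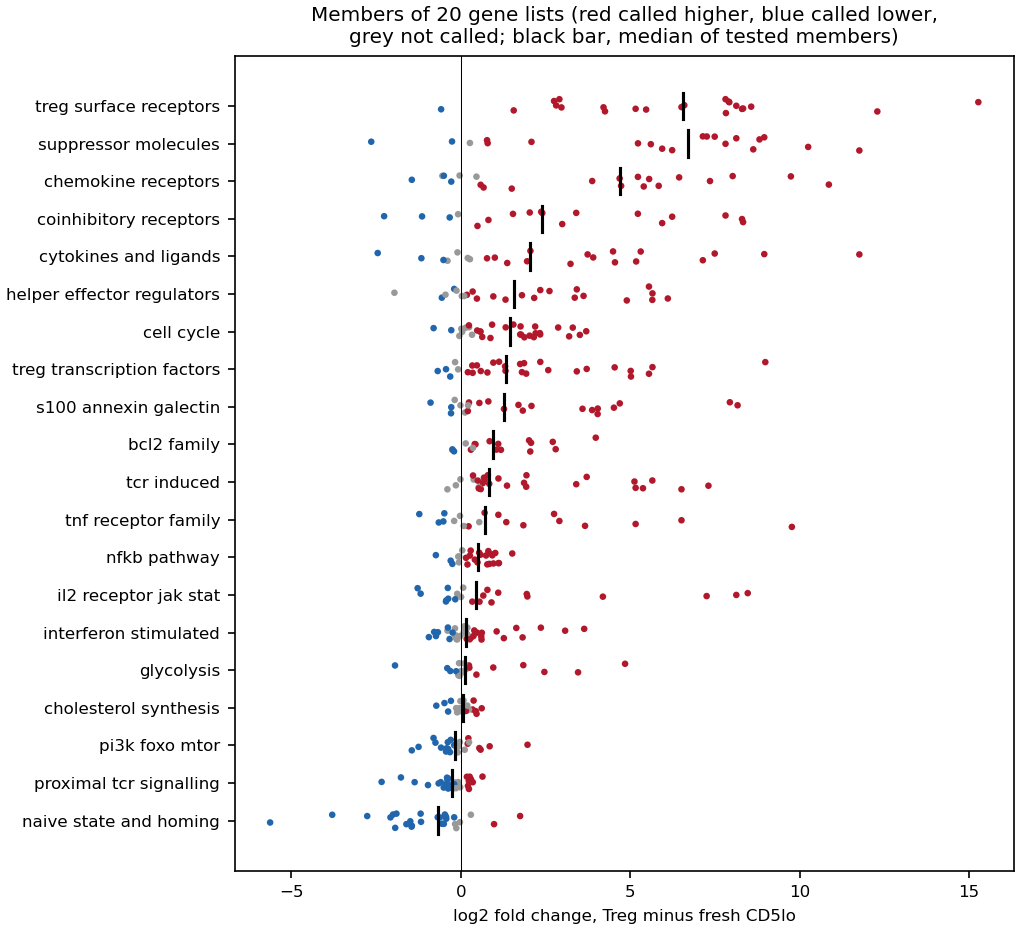
Log2 fold change, Treg minus fresh CD5lo, of the tested members of 20 gene lists, 1 row per list and 1 point per gene, red where called higher, blue where called lower and grey where not called. Black bars give list medians, from 6.69 for suppressor molecules to -0.68 for genes of the naive state.

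Interleukin 2 receptor and JAK-STAT genes split, with 12 of 22 called higher and 7 lower. The beta chain Il2rb, shared with the interleukin 15 receptor, had 1100, 1150, 1080 and 1200 CPM in Treg, against 7.91, 8.9, 6.18 and 6.57 CPM in CD5lo cells. It was the second largest gain in mean CPM after Xist, with a log2 fold change of 7.26 ± 0.11 (edgeR adjusted p = 6.3e-22). Feedback genes induced by STAT5 were higher too: Socs2 averaged 69 ± 6.72 CPM in Treg and 0.191 ± 0.0438 CPM in CD5lo cells, Cish 211 ± 20.9 CPM in Treg and 11.5 ± 2.51 CPM in CD5lo cells, and Socs1 96.4 ± 9.79 CPM in Treg and 25 ± 2.95 CPM in CD5lo cells. Il7r, the receptor chain for interleukin 7, was lower, at 218, 207, 202 and 291 CPM in Treg, against 532, 533, 440 and 579 CPM in CD5lo cells. The kinases Pim1 and Pim2 moved apart, with Pim1 at 334 ± 15.7 CPM in Treg and 85.4 ± 4.36 CPM in CD5lo cells, and Pim2 at 27.6 ± 1.41 CPM in Treg and 66.5 ± 7.91 CPM in CD5lo cells.

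Genes induced by TCR signals were called higher in 23 of 28 tested members, with a median log2 fold change of 0.82, and the other 5 were not called. Nr4a1 (Nur77), an early nuclear receptor that reports TCR signals, was at 117, 130, 123 and 117 CPM in Treg, against 30, 32.9, 35.6 and 29 CPM in CD5lo cells. The groups were well apart, with a log2 fold change of 1.93 ± 0.11 (edgeR adjusted p = 2.5e-12). Dusp4, a phosphatase that restrains MAP kinases, averaged 49.9 ± 1.37 CPM in Treg and 0.314 ± 0.25 CPM in CD5lo cells, and Spry1, another brake of that pathway, 19.2 ± 1.28 CPM in Treg and 0.459 ± 0.0198 CPM in CD5lo cells. The members not called were Cd69, Dusp6, Ier2, Fos and Jun. Without Treg replicate 3, Treg replicate 4 or CD5lo replicate 4, Fos was called higher (edgeR adjusted p = 0.0038 to 0.042), and without Treg replicate 2, Jun was called lower (0.016).

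Components of the TCR and its first signalling steps went mostly the other way, with 18 of 30 called lower and 8 higher and a median of -0.24. With Treg replicate 3 as the only Treg library, 15 were lower and 4 higher. Themis, an adaptor needed for thymic selection, was at 39.5, 40.7, 36.5 and 35.7 CPM in Treg, against 194, 189, 199 and 186 CPM in CD5lo cells. It was lower in every Treg library, with a log2 fold change of -2.33 ± 0.057 (edgeR adjusted p = 7.8e-19). Dgka, which ends diacylglycerol signals, averaged 1070 ± 85.3 CPM in Treg and 2090 ± 72.8 CPM in CD5lo cells. The kinase Lck changed less, at 830 ± 27.2 CPM in Treg and 1070 ± 54.5 CPM in CD5lo cells, and Cd3e was not called (edgeR adjusted p = 0.059), although it was called in fits on the fresh groups alone (0.005 to 0.014).

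NF-kB pathway genes were called higher in 19 of 26 tested members and lower in 3, with a median of 0.52. Their called share was 84.6%, against 58.5% of all genes. Nfkb1, a DNA-binding subunit, averaged 409 ± 23.8 CPM in Treg and 244 ± 7.71 CPM in CD5lo cells. Rel (c-Rel) averaged 60.3 ± 2.82 CPM in Treg and 27.9 ± 2.79 CPM in CD5lo cells, and the inhibitor Nfkbia 232 ± 0.938 CPM in Treg and 122 ± 5.72 CPM in CD5lo cells. Icam1, an adhesion molecule that the pathway induces, averaged 82.7 ± 4.91 CPM in Treg and 28.8 ± 1.74 CPM in CD5lo cells.

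Genes of the naive state and of lymph node homing were called lower in 21 of 27 tested members and higher in 2, with a median of -0.68. Tcf7, which encodes TCF1, was at 544, 574, 431 and 513 CPM in Treg, against 2400, 2150, 1890 and 2230 CPM in CD5lo cells. The log2 fold change was -2.07 ± 0.084 (edgeR adjusted p = 4.8e-15), and the groups were far apart. Its relative Lef1 averaged 123 ± 10.4 CPM in Treg and 373 ± 20.8 CPM in CD5lo cells, and Satb1, an organiser of chromatin loops, 282 ± 31.8 CPM in Treg and 1050 ± 63.3 CPM in CD5lo cells. Ccr7 was at 202, 213, 189 and 211 CPM in Treg, against 594, 542, 528 and 550 CPM in CD5lo cells. The higher members were Id3 and Tspan13.

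Chemokine receptors were mostly higher, with 15 of 21 called higher and 3 lower, Ccr7 among them, and a median of 4.69. Ccr4, a receptor for skin and activated dendritic cells, was at 90.9, 83.1, 88.4 and 98 CPM in Treg, against 0.904, 1.17, 0.881 and 1.17 CPM in CD5lo cells. Cxcr3, found on Th1 cells, was at 54, 43.2, 66.4 and 57.7 CPM in Treg, against 0.709, 1.55, 0.9 and 0.661 CPM in CD5lo cells. Ccr2, the receptor for CCL2, averaged 62.7 ± 5.39 CPM in Treg and 0.38 ± 0.0578 CPM in CD5lo cells. None of these 3 receptors had overlapping groups. Integrins and adhesion genes were called higher in 14 of 23 and lower in 4, a called share of 78.3% against 58.5% of all genes. The 14 include Cd44, whose protein the naive gate excluded. Itgae, the integrin chain CD103 that binds E-cadherin on epithelium, averaged 217 ± 18.7 CPM in Treg and 0.954 ± 0.152 CPM in CD5lo cells, whereas Itgb3 was lower, at 71 ± 1.85 CPM in Treg and 272 ± 9.68 CPM in CD5lo cells.

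A list of S100, annexin and galectin genes, which also holds genes outside these families such as Ahnak and Capg, had 23 tested members. Of these, 16 were called higher and 3 lower, with a median of 1.28. S100a4 was at 85.3, 73.5, 87.9 and 82.3 CPM in Treg, against 0.461, 0.408, 0.157 and 0.0778 CPM in CD5lo cells. Its log2 fold change was 8.17 ± 0.32 (edgeR adjusted p = 3.0e-15). S100a6 averaged 74.9 ± 3.71 CPM in Treg and 0.299 ± 0.101 CPM in CD5lo cells, and Capg, an actin-capping protein, 305 ± 18.3 CPM in Treg and 20.8 ± 1.22 CPM in CD5lo cells. Ahnak, a giant scaffold protein, was at 877, 859, 867 and 1110 CPM in Treg, against 35.1, 38.1, 33.4 and 36.9 CPM in CD5lo cells. Replicate 4 was the highest of the Treg libraries, and all 4 were far above the CD5lo libraries.

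Cytokine and ligand genes reached the test in 23 of 33 cases, of which 16 were called higher and 3 lower. Il2, the growth factor of Treg, was too low to be tested, at 0.0563 ± 0.0313 CPM in Treg and 0.00489 ± 0.00978 CPM in CD5lo cells. Ebi3, a chain of interleukins 27 and 35, averaged 17 ± 0.948 CPM in Treg and 0.0933 ± 0.0825 CPM in CD5lo cells, and Lif 8.95 ± 0.764 CPM in Treg and 0.249 ± 0.217 CPM in CD5lo cells. TGF-beta pathway genes were split evenly, with 8 of 19 higher and 8 lower, a called share of 84.2% against 58.5% of all genes. The receptor chains moved apart: Tgfbr1 averaged 190 ± 7.55 CPM in Treg and 55.6 ± 3.22 CPM in CD5lo cells, and Tgfbr2 267 ± 17.2 CPM in Treg and 599 ± 25.6 CPM in CD5lo cells. The co-receptor Tgfbr3 was lower, at 15 ± 1.82 CPM in Treg and 146 ± 4.95 CPM in CD5lo cells.

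Cyclic AMP genes were mixed. Receptors that raise cyclic AMP moved in both directions. Vipr1, described above, was among the largest falls, whereas Adora2a, for adenosine, averaged 60.7 ± 0.811 CPM in Treg and 11.8 ± 0.845 CPM in CD5lo cells, Ptger2, for prostaglandin E2, 44.6 ± 4.04 CPM in Treg and 0.918 ± 0.268 CPM in CD5lo cells, and Ptger4 107 ± 8.83 CPM in Treg and 31.8 ± 1.79 CPM in CD5lo cells. Of the phosphodiesterases that break it down, Pde3b, Pde4b, Pde4d and Pde7a were called lower and Pde2a and Pde4a higher. Over the whole list 13 of 20 were called higher and 6 lower. G protein regulators Rgs1 and Rgs16 were among the higher members, with Rgs1 at 179 ± 11.5 CPM in Treg and 1.16 ± 0.324 CPM in CD5lo cells.

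Proliferation genes were called higher in 24 of 32 tested members and lower in 2, with a median of 1.44. Mki67, the proliferation marker Ki-67, was at 58.7, 50.8, 65.2 and 72.7 CPM in Treg, against 5.64, 6.24, 4.95 and 4.76 CPM in CD5lo cells. Top2a, a topoisomerase of S and G2 phase, was at 25.6, 23.4, 30.4 and 33.1 CPM in Treg, against 8.53, 8.52, 8.39 and 7.89 CPM in CD5lo cells. Both were higher in all 4 Treg libraries, with log2 fold changes of 3.52 ± 0.18 and 1.76 ± 0.11 (edgeR adjusted p = 2.3e-13 and 1.4e-11). Uhrf1, which copies DNA methylation at replication forks, averaged 17.3 ± 2.39 CPM in Treg and 3.76 ± 0.401 CPM in CD5lo cells. The maintenance methyltransferase Dnmt1 was slightly lower, at 170 ± 7.55 CPM in Treg and 214 ± 7.7 CPM in CD5lo cells, and the demethylating enzyme Tet1 was lower, at 22 ± 3.32 CPM in Treg and 66.8 ± 1.34 CPM in CD5lo cells.

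Survival genes of the BCL2 family were called higher in 13 of 18 tested members and lower in 2, with pro-survival and pro-death genes both among the higher ones. The called share was 83.3%, against 58.5% of all genes. Bcl2 was at 382, 363, 345 and 390 CPM in Treg, against 131, 179, 209 and 168 CPM in CD5lo cells. Bcl2l1 (Bcl-xL) averaged 67.3 ± 1.01 CPM in Treg and 16.6 ± 0.965 CPM in CD5lo cells. The death-promoting Pmaip1 (Noxa) averaged 12.9 ± 1.3 CPM in Treg and 0.818 ± 0.212 CPM in CD5lo cells, and Bid 31.6 ± 2.34 CPM in Treg and 13.9 ± 1.22 CPM in CD5lo cells. Bcl2a1b was also higher, but its near-identical copies make its level uncertain. PI3K, FoxO and mTOR genes were called lower in 12 of 24 and higher in 6, a called share of 75% against 58.5% of all genes. Rictor, a subunit of mTORC2, averaged 152 ± 12.3 CPM in Treg and 265 ± 13.7 CPM in CD5lo cells. The phosphatase Phlpp1 averaged 68.9 ± 5.54 CPM in Treg and 17.6 ± 1.74 CPM in CD5lo cells.

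Metabolic and interferon lists were nearer to the background of 58.5%. Glycolysis genes were called in 13 of 20 cases, 9 higher and 4 lower. Hk2, an inducible hexokinase, was at 6.25, 6.12, 5.38 and 6.4 CPM in Treg, against 0.337, 0.102, 0.274 and 0.117 CPM in CD5lo cells. Slc2a3, the glucose carrier GLUT3, averaged 162 ± 4.59 CPM in Treg and 45.1 ± 1.45 CPM in CD5lo cells, whereas Pdk1, which turns pyruvate away from mitochondria, was lower at 166 ± 8.92 CPM in Treg and 635 ± 62 CPM in CD5lo cells. Cholesterol synthesis genes were called in 10 of 21 cases, and no named member changed 2-fold. Interferon-stimulated genes were called higher in 17 of 38 and lower in 7, and higher in 11 with Treg replicate 3 as the only Treg library. Gbp3, a guanylate-binding protein, averaged 121 ± 9.21 CPM in Treg and 14.3 ± 1.46 CPM in CD5lo cells.

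Among MHC class I genes 9 of 18 were called higher and 2 lower (61.1% called, close to the 58.5% of all genes), and 5 were higher with Treg replicate 3 as the only Treg library. H2-K1 was at 4090, 4320, 4450 and 4270 CPM in Treg, against 3730, 3590, 3550 and 3570 CPM in CD5lo cells. The groups did not overlap, but the change was small (log2 fold change 0.25 ± 0.097, edgeR adjusted p = 0.034), and the adjusted p was 0.054 to 0.062 without Treg replicate 2 or 3 or without CD5lo replicate 2, 3 or 4. The nonclassical H2-Q6 averaged 330 ± 22.7 CPM in Treg and 51.3 ± 11.7 CPM in CD5lo cells, with near-identical relatives that make its level uncertain. Large losses in CPM included translation genes: Eef1a1, the elongation factor that brings transfer RNA to the ribosome, averaged 9680 ± 592 CPM in Treg and 12000 ± 435 CPM in CD5lo cells, and the ribosomal stalk protein Rplp0 2350 ± 182 CPM in Treg and 3470 ± 140 CPM in CD5lo cells. On the gain side, Samhd1, which degrades deoxynucleotides, averaged 1410 ± 80.5 CPM in Treg and 466 ± 8.97 CPM in CD5lo cells.

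Of 12 thymocyte genes tested, 5 were called higher and 3 lower, a called share of 66.7% against 58.5% of all genes. Dntt, the terminal transferase of antigen receptor assembly, was at 2.35, 1.65, 1.91 and 1.6 CPM in Treg, against 28.3, 25.8, 32.6 and 28 CPM in CD5lo cells. It was also low in CD5hi cells, at 1.98 ± 0.354 CPM, and did not pass the test between Treg and CD5hi cells (edgeR adjusted p = 0.73). Rag1 was too low to be tested. Notch and Wnt genes were called higher in 6 of 17 and lower in 7, and higher in 2 with Treg replicate 3 as the only Treg library. The called share of Notch and Wnt genes was 76.5%, against 58.5% of all genes. Maml2, a Notch coactivator, averaged 37.1 ± 1.34 CPM in Treg and 105 ± 5.58 CPM in CD5lo cells.

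Fresh CD5hi cells were set beside both groups, since Treg also had more Cd5 than CD5lo cells. Treg against CD5hi cells gave 7208 calls (54.2%), and CD5hi against CD5lo cells 1524 (11.5%); all 3 contrasts share libraries in pairs, so values are set side by side only. Folr4 was at 682 ± 23.9 CPM in Treg, 224 ± 2.19 CPM in CD5hi cells and 35.7 ± 2.86 CPM in CD5lo cells, and Nr4a1 was at 122 ± 6.33 CPM in Treg, 69.5 ± 7.5 CPM in CD5hi cells and 31.9 ± 2.99 CPM in CD5lo cells. For both, CD5hi cells stood between the others, and each neighbour differed past the test. Ikzf2, Il2rb and Tnfrsf9 were also higher in CD5hi than in CD5lo cells, at 9.63 ± 0.648, 33.8 ± 1.6 and 11.1 ± 1.06 CPM in CD5hi cells, far under their Treg levels. Foxp3 was at 24.1 ± 1.39 CPM in CD5hi cells and did not pass the test against CD5lo cells (edgeR adjusted p = 0.35).

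Other genes kept no such order. Il2ra was lower in CD5hi than in CD5lo cells, at 1.64 ± 0.308 CPM in CD5hi cells and 2.93 ± 0.463 CPM in CD5lo cells (edgeR adjusted p = 5.9e-05). Dapl1, a gene of resting naive cells, was at 2.57 ± 0.489 CPM in Treg, 90.5 ± 9.05 CPM in CD5hi cells and 35.6 ± 4.2 CPM in CD5lo cells. Igfbp4, an IGF-binding protein made by naive CD4 cells, was at 93.3 ± 5.79 CPM in Treg, 1130 ± 93.7 CPM in CD5hi cells and 631 ± 43.3 CPM in CD5lo cells. These 2 genes were thus highest in CD5hi cells, unlike Nr4a1. Pdlim4 was at 24.5 ± 1.84 CPM in CD5hi cells, between 0.212 ± 0.181 CPM in Treg and 89.8 ± 4.98 CPM in CD5lo cells, whereas Vipr1 was at 312 ± 18.3 CPM in CD5hi cells and did not pass the test against CD5lo cells (edgeR adjusted p = 0.97).

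**Figure D4:**
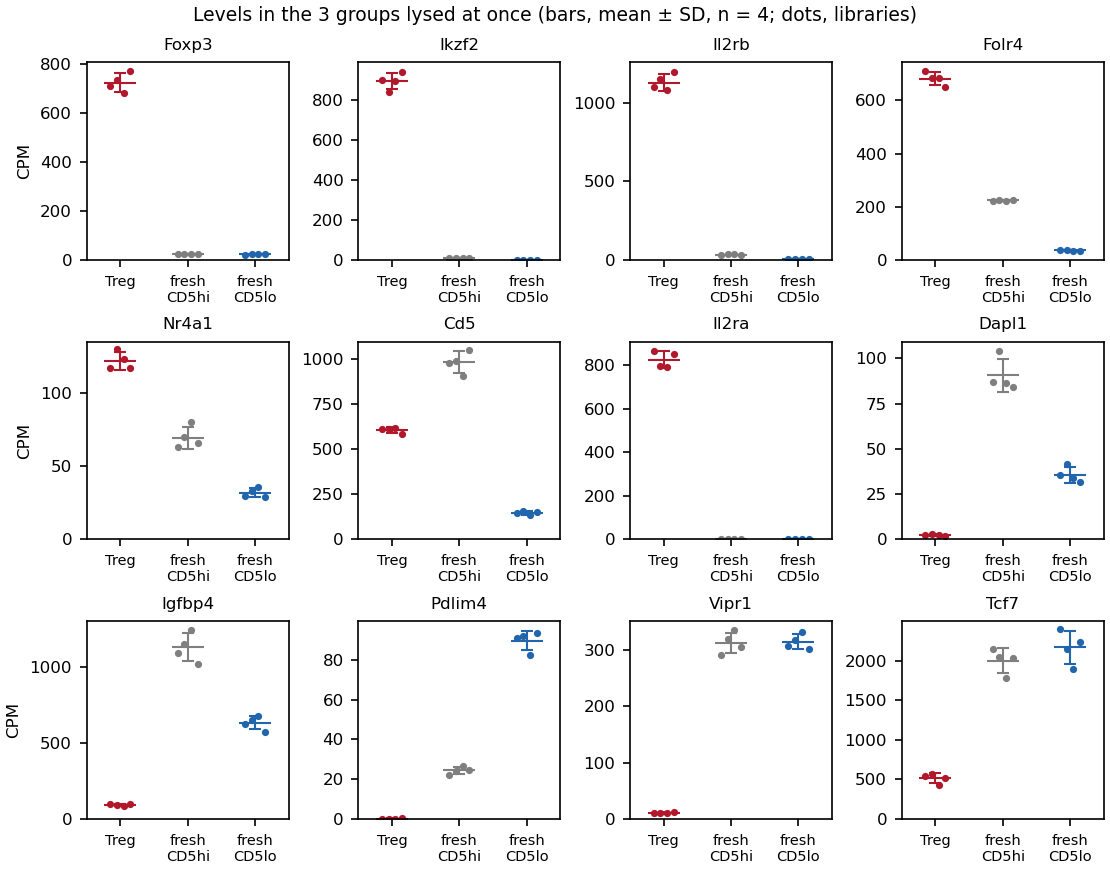
CPM of 12 genes in Treg, fresh CD5hi and fresh CD5lo cells, with points for the 4 libraries and bars for mean ± SD. Folr4 and Nr4a1 are intermediate in CD5hi cells, Dapl1 and Igfbp4 are highest there, and Tcf7 and Vipr1 are low in Treg alone of the 3 groups.

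Markers of other cells were present at low levels and moved with the groups. B cell markers were called higher in 13 of 16 tested members, with summed levels of 110 to 123 CPM in Treg and 16.3 to 21.7 CPM in CD5lo cells. The B cell markers Cd79b and Cd22 averaged 17.2 ± 0.987 and 8.47 ± 0.719 CPM in Treg and 0.738 ± 0.161 and 0.611 ± 0.184 CPM in CD5lo cells, while Cd79a was not called. Macrophage markers summed to 118 to 135 CPM in Treg and 48.7 to 65 CPM in CD5lo cells, although 13 of 20 were called lower. The 2 called higher were Cybb, at 36.5 ± 1.61 CPM in Treg and 0.628 ± 0.172 CPM in CD5lo cells, and Axl, at 59.4 ± 5.64 CPM in Treg and 5.3 ± 0.738 CPM in CD5lo cells, and defining genes were near 0 in Treg, such as Emr1 at 0.418 ± 0.112 CPM. With Treg replicate 3 as the only Treg library, 5 macrophage markers were called lower. NK, gamma-delta and CD8 markers summed to 35 to 43.8 CPM in Treg and 89 to 96 CPM in CD5lo cells, with Klrd1 and Prf1, described above, among the 5 of 10 called lower. The 3 called higher were Klrb1c, which encodes NK1.1, at 2.36 ± 0.271 CPM in Treg and 0.187 ± 0.0495 CPM in CD5lo cells, the cytotoxic granule gene Nkg7 at 10.3 ± 1.94 CPM in Treg and 0.793 ± 0.376 CPM in CD5lo cells, and the T-box factor Eomes at 4.78 ± 0.883 CPM in Treg and 1.06 ± 0.286 CPM in CD5lo cells, and 5 were higher without CD5lo replicate 3. Red cell and platelet markers summed to 4.56 to 35.4 CPM in Treg and 57.1 to 117 CPM in CD5lo cells. These sums are inflated, because Hba-a1 and Hba-a2 had identical values in every Treg and CD5lo library, as did Hbb-b1 and Hbb-b2, and all were added. The part of these markers of other cells in the gene results was not tested.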

How the data were processed

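Polyadenylated RNA of 20 libraries in 5 groups of 4 was sequenced from both ends for 50 cycles. The authors deposited read counts per gene symbol (22068 symbols), the unit tested here, and mm9 is the build in the submitters' processing notes, which also list edgeR, TopHat2 2.0.11 and featureCounts 1.4.5. Neither annotation nor strandedness is stated there, so overlapping and antisense genes cannot be separated. In each of the 20 libraries, 62.3 to 66.2% of the counts from 1 to 10 were even, the pattern of pairs counted per mate. The authors also deposited a normalized signal for 10147 genes, which was proportional to the counts within 1% in every library and served only as that check.

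Counts of all 20 libraries were fitted with edgeR 4.0.16 in R 4.3.3 (quasi-likelihood test, trimmed-mean scaling, default expression filter, 1 group factor, 15 residual degrees of freedom). The filter left 13309 genes and removed 8759. P-values were adjusted over all genes tested. Intervals cover counting error only, at 95%, and a count of 0 was set to a floor of 3 counts over the group. In simulated counts (13025 genes run), 67 genes were changed 1.5-fold, 67 2-fold and 66 4-fold, in either direction. Of these changes 79.1%, 89.6% and 97% were recovered, and 6.35% of calls were false. Far fewer genes changed there than were called in the data, so these shares may not hold for this contrast. Alternatives were other scalings and filters, the 8 or 12 fresh libraries alone, DESeq2 1.42.0, a replicate block, Treg replicate 3 alone and each library left out.

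The members, gene lists and tests were chosen with earlier results of these data known. Named genes are the sort and cell type markers, the 12 largest rises and falls without overlap whose higher group reached 10 CPM, the 8 largest gains and losses in CPM, and in each of 37 lists the first 2 members and up to 6 further called members by fold change, from 1 CPM up. The largest changes skip predicted genes and antigen receptor segments, and for length some genes stay unnamed. List members that the rule does not take, named where few were called lower or not called, were chosen after their values were seen. The labels number the libraries of a group without tying them to animals or cultures, so p-values measure the spread between these samples. Some genes of these lists are not reported here.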

Additional observations from a re-analysis of the deposited data

Results flagged for a closer look

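Within each group of 4 libraries, 1 library was marked where its gap to the nearest other passed Dixon's 95% limit, and 28 of 488 sets of values (5.74%) met this. Chance marks about 1 in 20 sets of 4. In Treg, 14 sets were marked. Xist in replicate 3 was 0.598 CPM, against at least 1500 CPM in the other Treg libraries, and Foxo1 there was 351 CPM and Pde4b 84.9 CPM. Treg replicate 4 was marked for Ahnak (1110 CPM, the others at most 877), Hopx (86.5 CPM), Vipr1 (12.6 CPM), Pim2 (29.7 CPM), Phlpp1 (77.1 CPM), H2-Q7 (1020 CPM), Maml2 (39.1 CPM) and Dnmt1 (181 CPM). Treg replicate 2 was marked for Klrd1 (0.339 CPM) and Gpr55 (19.7 CPM), and replicate 1 for Cybb (38.9 CPM).

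In the CD5lo group, replicate 1 stood out for red cell and platelet markers, which summed to 117 CPM against at most 63.9 CPM in the others. These sums add the identical values of paired globin genes. Hba-a1 was 37.4 CPM and Hbb-b1 16.6 CPM in that library, both with near-identical copies that make their levels uncertain. Replicate 3 was marked for Pde3b (290 CPM), Pdk1 (542 CPM), Acvrl1 (71 CPM), Notch2 (93.6 CPM), Zbtb7b (336 CPM) and Pde4d (131 CPM). The other marks came from 1 or 2 counts in a single CD5lo library with none in the rest: Lrrc32 and Penk in replicate 2 (0.034 CPM each), Ptpn5 in replicate 1 (0.0177 CPM), Gpr15 in replicate 3 (0.0391 CPM) and Tnfrsf8 in replicate 4 (0.0389 CPM). What set these libraries apart was not tested.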

How the results depend on the processing

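Counts of calls ranged from 2950 to 4790 higher and from 2374 to 4074 lower over all settings. The value with Treg replicate 3 as the only Treg library, 2374 lower, was the one count more than 1.5 times away from that reported, and its fit has 1 Treg library, assumed to vary like the other groups. Leaving out each library gave 3799 to 3914 higher and 3408 to 3500 lower. Relative log scaling gave 4081 and 3523, DESeq2 4207 and 3571, no filter 4206 and 3573. Samples were treated as unpaired, and a replicate block gave 4079 higher and 3806 lower. Same-numbered deviations correlated at 0.141, -0.308, -0.0665 and 0.0665, too few values to tell whether replicate numbers pair the samples. Of 236 named genes no called one changed direction, while Dusp6, Ier2 and Notch1, not called, changed sign between settings. DESeq2 lost the calls of Hba-a1, Hbb-b1, Lgmn and Zbtb7b, and Treg replicate 3 alone those of 12 genes, among them H2-K1, H2-D1, Tpt1, Sox4, Emr1, Csf1r and Cd3g. Ccnd2 (not called) passed in 9 settings. In CD5lo cells, depth limits genes under about 3 counts.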

Other observations

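Among the 52 genes at 10 CPM or more in every Treg library and under 0.5 CPM in every CD5lo library, several outside the naming rule were chosen after their values were seen. Entpd1, which encodes CD39 and degrades extracellular ATP, was at 51.7, 49.8, 55.3 and 53 CPM in Treg, against 0.142, 0.476, 0.391 and 0.35 CPM in CD5lo cells. Its log2 fold change was 7.26 ± 0.31 (edgeR adjusted p = 1.0e-14), and all 4 Treg libraries were higher. Il9r, the interleukin 9 receptor, averaged 32.8 ± 4.66 CPM in Treg and 0.182 ± 0.141 CPM in CD5lo cells. Npas4, a transcription factor best known from active neurons, averaged 14.6 ± 1.49 CPM in Treg and 0.0842 ± 0.0621 CPM in CD5lo cells. Stra6, a membrane receptor for the retinol carrier protein, averaged 17.6 ± 2.17 CPM in Treg and 0.0412 ± 0.0327 CPM in CD5lo cells, and Gpr55, a receptor for lysophospholipids, 23.7 ± 2.65 CPM in Treg and 0.23 ± 0.165 CPM in CD5lo cells. Gcnt1, an enzyme that builds branched O-glycans of selectin ligands, averaged 15.6 ± 2.44 CPM in Treg and 0.15 ± 0.113 CPM in CD5lo cells, and Alcam, a ligand of CD6, 14.2 ± 0.822 CPM in Treg and 0.324 ± 0.0726 CPM in CD5lo cells. In CD5hi cells these genes were also low, from 0.111 ± 0.049 CPM for Npas4 to 1.24 ± 0.373 CPM for Alcam.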
